A study of Mus musculus with 3 samples.

Results

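Described here are 9 genes whose products cut proteins into peptides and load the peptides onto major histocompatibility complex (MHC) class I molecules. The genes are Psmb8, Psmb9, Psmb10, Psme1, Psme2, Tap1, Tap2, Tapbp and Nlrc5. The genes were chosen by name from the 27998 genes of each count matrix. They were followed across 3 droplet single-cell RNA libraries of mouse bone marrow niche cells, with 1 library per group. Untreated female CB6F1 mice gave the WT library. For the BMT library, female CB6F1 mice (CD45.2+) were irradiated with 4.0 Gy on 2 occasions and given B6.SJL (CD45.1+) bone marrow cells 4 hours later. For the aGVHD library (acute graft-versus-host disease), mice were treated in the same way and also received spleen cells of female C57BL/6 mice, so irradiation and marrow transfer are shared by BMT and aGVHD. All libraries were sorted against CD45, a lineage antibody mix and CD71, with Calcein AM and DAPI to keep live cells. How many mice made up a library and how long after transfer they were taken is not stated in the labels.

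The proteasome is a barrel whose catalytic subunits cut proteins. Interferon gamma makes cells replace the standard subunits Psmb5, Psmb6 and Psmb7 by Psmb8, Psmb9 and Psmb10, which gives the immunoproteasome, and the activator made of Psme1 and Psme2 (PA28) can cap the barrel. Tap1 and Tap2 form the pump that carries peptides into the endoplasmic reticulum, Tapbp (tapasin) holds an empty class I molecule at that pump, and Nlrc5 is a transcriptional activator of class I genes. In graft-versus-host disease, donor T cells recognise host peptides and host MHC on host tissue, and CD8 T cells do so through class I.

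Psmb9, Tap1, Psmb8 and Tap2 lie side by side on chromosome 17, between 34181987 and 34216321 (GENCODE M21 annotation of GRCm38), a stretch of 34.3 kb inside the MHC. Tapbp lies on the same chromosome at 33915899 to 33929292. Psme1 (55578123 to 55581529) and Psme2 (55587441 to 55591113) are neighbours on chromosome 14. Psmb10 (105935735 to 105938444) and Nlrc5 (94434356 to 94527272) are on chromosome 8. The 5′ ends of Psmb9 and Tap1 overlap on opposite strands, and 8 of the 9 genes overlap another annotated gene, such as Emc9 at Psme1 and Zbtb22 at Tapbp. Whether counting used the strand is not stated, so UMIs from overlapping stretches cannot be told apart. Psme2 has a close copy, Psme2b, among the listed genes, and the split of reads between them is uncertain.

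RefSeq promoter windows of 300 bases (GRCm38.p6) were matched for 7 of the 9 genes. The stretch that the windows of Tap1 and Psmb9 share is shown because the windows of these genes, read from opposite strands, overlap there. Windows follow RefSeq starts, and the GENCODE extents differ: there the stretch lies within Psmb9 and holds the first bases of Tap1, and the Psmb8 and Psme1 windows lie within their genes. The windows of Psmb8 and Psme1 are shown because they were the ones with a match to an interferon motif. Capitals mark motif matches, and each sequence is written 5′ to 3′ on the plus strand of chromosome 17, 17 and 14.
Tap1 and Psmb9, shared stretch, chr17:34187306-34187580, plus strand: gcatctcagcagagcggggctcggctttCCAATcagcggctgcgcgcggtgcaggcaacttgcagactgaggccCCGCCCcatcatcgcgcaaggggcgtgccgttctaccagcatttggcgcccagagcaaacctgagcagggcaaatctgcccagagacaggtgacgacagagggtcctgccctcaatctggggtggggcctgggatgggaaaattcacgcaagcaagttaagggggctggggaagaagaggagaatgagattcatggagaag
Psmb8, chr17:34197945-34198244, plus strand: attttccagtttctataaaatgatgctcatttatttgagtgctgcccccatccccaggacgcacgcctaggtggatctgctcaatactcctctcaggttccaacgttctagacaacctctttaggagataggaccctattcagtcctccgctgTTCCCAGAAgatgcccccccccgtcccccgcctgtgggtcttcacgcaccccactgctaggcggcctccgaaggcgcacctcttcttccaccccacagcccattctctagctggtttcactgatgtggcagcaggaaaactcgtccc
Psme1, chr14:55578244-55578543, plus strand: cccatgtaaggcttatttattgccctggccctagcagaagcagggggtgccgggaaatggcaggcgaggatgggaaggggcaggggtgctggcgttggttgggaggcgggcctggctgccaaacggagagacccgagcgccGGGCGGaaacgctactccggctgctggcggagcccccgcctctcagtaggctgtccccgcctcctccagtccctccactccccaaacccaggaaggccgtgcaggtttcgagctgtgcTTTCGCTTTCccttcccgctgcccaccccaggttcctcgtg

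Both strands were searched for 4 motifs, and matches did not overlap each other in the printed windows. The interferon gamma activated site (GAS, searched as TTCNNNGAA) was matched in the Psmb8 window by TTCCCAGAA, 97 bases before the RefSeq start, and 8.3% of all 32851 promoter windows hold such a match. The pair of interferon regulatory factor half-sites (searched as GAAANNGAAA) was matched in the Psme1 window by TTTCGCTTTC, 10 bases after the start, and 3.44% of all windows hold one. The shared stretch of Tap1 and Psmb9 held a CCAAT box (CCAAT, in 37.4% of all windows) and a GC box (GGGCGG, in 35.7%), and neither interferon motif. These are letter matches in one window per listed start and say nothing of binding.

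The libraries held 86575425 (WT), 44219063 (BMT) and 67439098 (aGVHD) UMIs, unique molecular identifiers that count captured RNA molecules. After removal of likely doublets, 6722, 3516 and 5320 cells were kept, and 8 to 11 cell barcodes were shared by each pair of libraries. Each cell was given a class from its own marker genes: at least 3 counted markers and a lead of 2 over any other class. LepR stromal cells, the reticular cells that make Cxcl12, numbered 923 in WT, 375 in BMT and 344 in aGVHD. Endothelial cells numbered 528, 763 and 1231, and fibroblasts 1097, 222 and 314. The classes were chosen on their markers, and 8 of 8 LepR stromal markers, 12 of 12 endothelial markers and at least 8 of 10 fibroblast markers were highest in their own class in every library. In joint clusters made without the 9 genes, 901 of 923 WT LepR stromal cells lay in cluster 10, whereas 366 of 375 BMT cells and 344 of 344 aGVHD cells lay in cluster 31. Of the endothelial cells, 328 of 528 WT cells lay in cluster 15, 501 of 763 BMT cells in cluster 18 and 1082 of 1231 aGVHD cells in cluster 19. Fibroblasts of all libraries lay mostly in clusters 7 and 2. Between 22.7% and 29.6% of kept cells had no class. The gate took unlike parts of the clusters. Of 922 WT cells in cluster 10, 901 were gated as LepR stromal, while 203 of 574 BMT cells in cluster 31 had no class. In cluster 7, 399 of 1035 WT cells had none. Cells near the limits of the gate made up 4.12%, 32.5% and 11.6% of LepR stromal cells and 29.8%, 9.91% and 8.92% of fibroblasts. With 1 library per group there is no spread between mice. No test was run, and each 95% interval below covers counting error only.

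Levels are given as CPM, the UMIs of a gene per 1000000 UMIs of the class in that library. Free RNA in the cell suspension also carried these genes. Empty droplets (at most 100 UMIs) held the 9 genes at a summed 499 CPM in WT, 1459 CPM in BMT and 1673 CPM in aGVHD. Haemoglobin and granule genes served to estimate the part of a class's UMIs that came from free RNA, which was 1.09% to 6.16% in LepR stromal cells, 2.73% to 10.9% in endothelial cells and 1.80% to 12.5% in fibroblasts. At those shares free RNA would carry 15.9 to 65.4 CPM of the summed level in LepR stromal cells, 39.9 to 56.3 CPM in endothelial cells and 22.1 to 209.8 CPM in fibroblasts. The pan-leukocyte gene Ptprc had 1 to 12 UMIs in these 3 classes in any library.

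In untreated marrow the 9 genes together stood higher in LepR stromal cells than in connective tissue cells. Their summed level in WT was 2091 CPM (95% interval 1950 to 2240) in T and NK cells and 1194 CPM (1165 to 1224) in LepR stromal cells. B lineage cells (940.4 CPM), endothelial cells (914 CPM) and neutrophils (848 CPM) followed, and their intervals overlapped from each neighbour to the next. Erythroid cells (399.6 CPM) and fibroblasts (387 CPM) overlapped as well. Mural cells, the contractile cells around vessels, stood at 304 CPM, tendon cells at 224 CPM, osteolineage cells at 221 CPM and chondrocytes at 137 CPM (128.9 to 146.1). Single genes did not all follow the sum. In LepR stromal cells Tap1 stood at 36.8 CPM and Nlrc5 at 14.3 CPM. Tapbp stood at 144 CPM in fibroblasts, against 110 CPM in T and NK cells, with overlapping intervals.

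The order differed in the treated libraries, where fewer of these classes held the 50 cells needed for ranking. T and NK cells, the highest class in WT, numbered 24 in BMT and were not ranked there. In aGVHD, B lineage (9), osteolineage (9), tendon (20) and chondrocyte (37) cells were too few. In BMT, LepR stromal cells (2598 CPM, 2555 to 2641) and endothelial cells (2156 CPM, 2112 to 2200) stood above every other class of at least 50 cells, the next being B lineage cells at 1410 CPM (1340 to 1484). In aGVHD, endothelial cells were highest at 4275 CPM (4213 to 4338), above LepR stromal cells at 3229 CPM (3174 to 3284) and T and NK cells at 2148 CPM (2003 to 2301). Fibroblasts reached 1975 CPM (1913 to 2038), against 714 CPM in BMT, and mural cells 1358 CPM, against 685 CPM. Neutrophils held 848, 798 and 907 CPM in WT, BMT and aGVHD.

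**Figure D1:**
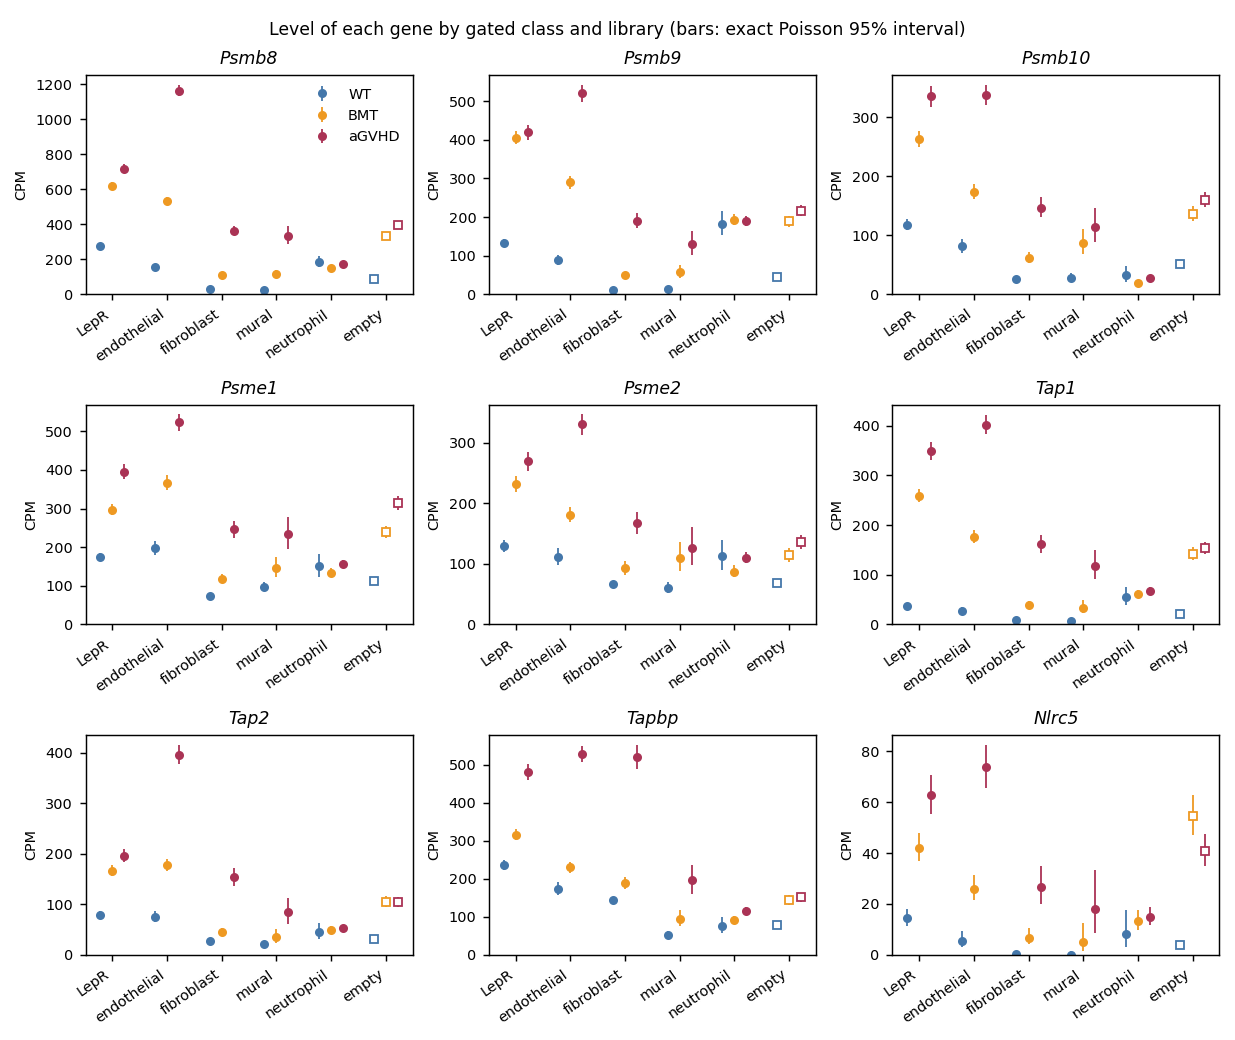
Level of each of the 9 genes (y axis, CPM, linear from 0) in 5 gated classes and in empty droplets (open squares), with 1 point per library and exact Poisson 95% intervals as bars. LepR stromal and endothelial cells step up from WT to BMT, and endothelial cells and fibroblasts step up again to aGVHD. Mural cells also step up to aGVHD, but with overlapping intervals for Psmb10, Psme2 and Nlrc5. In neutrophils every gene differs less than 2-fold between libraries, with Tapbp at 76.6 CPM in WT and 116 CPM in aGVHD.

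A gene was called if the 2 libraries together held 50 or more of its UMIs, the CPMs differed by 2-fold or more, and 1 lay outside the interval of the ratio. Between WT and BMT, 6 of 9 genes were called higher in LepR stromal cells, against 5.01% of the 9939 genes measured there. In endothelial cells 6 of 9 were called higher, against 4.72% of all genes, and in fibroblasts 4 of 8 with enough UMIs, against 3.13%. None was called lower in any of the 3 classes, where 2.22%, 5.24% and 2.86% of all genes were. The 3 classes share the genes Psmb8, Psmb9, Psmb10 and Tap1 among those called, while Psme1, Psme2 and Tapbp were called in none of them.

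Between BMT and aGVHD the classes parted by this 2-fold limit. In LepR stromal cells 0 of 9 genes were called in either direction (2.77% of all genes were called higher and 5.91% lower). In endothelial cells 5 of 9 were called higher (background 2.74% higher, 4.25% lower), and in fibroblasts 8 of 9 (background 3.12% higher, 4.39% lower). Uncalled genes also had ratios above 1. They ran from 1.04 (Psmb9) to 1.52 (Tapbp) in LepR stromal cells. The 4 uncalled genes in endothelial cells ran from 1.42 (Psme1) to 1.95 (Psmb10). Between WT and aGVHD all 9 genes were called higher in each of the 3 classes. The backgrounds were 5.8% higher and 6.24% lower in LepR stromal cells, 5.82% and 7.55% in endothelial cells, and 4.36% and 6.1% in fibroblasts. The median log2 fold of all genes in LepR stromal cells was 0.11 for BMT over WT and -0.12 for aGVHD over BMT, and within 0.1 of 0 in the other main classes. When a call also needed a level of at least 2 times the empty droplets, 1 gene was left in LepR stromal cells and 0 in endothelial cells and fibroblasts for BMT over WT, and 1 in fibroblasts for aGVHD over BMT. For aGVHD over WT that requirement left 3 genes in LepR stromal cells, 7 in endothelial cells and 1 in fibroblasts. The share of all genes that met it is not given here. The 3 comparisons share libraries and are not independent of each other.

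**Figure D2:**
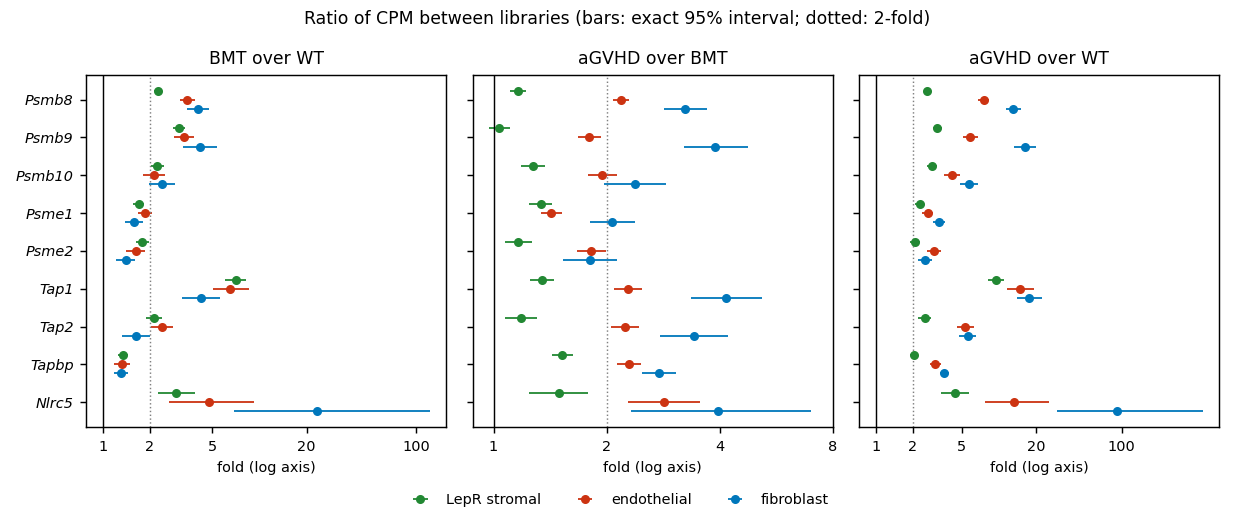
Ratio of CPM between libraries for the 9 genes (x axis, log scale, exact 95% intervals) in LepR stromal cells, endothelial cells and fibroblasts. For BMT over WT Tapbp lies at 1.31 to 1.34 in the 3 classes and Tap1 at 4.25 to 7.03, and for aGVHD over BMT LepR stromal cells lie at 1.04 to 1.52 and fibroblasts at 1.80 to 4.16.

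Among the catalytic subunits, Psmb8 (ENSMUSG00000024338), the chymotrypsin-like subunit of the immunoproteasome, stepped up at each comparison in endothelial cells and fibroblasts. Endothelial cells held it at 155 CPM in WT, 535 CPM in BMT and 1165 CPM in aGVHD. The BMT level was 3.46 times that of WT (3.098 to 3.88) and the aGVHD level 2.18 times that of BMT (2.07 to 2.29). LepR stromal cells held 275 CPM in WT, 619 CPM in BMT and 719 CPM in aGVHD, so most of the difference lay between WT and BMT (2.25-fold, 2.11 to 2.39). The ratio of aGVHD to BMT there was 1.16 (1.11 to 1.22), and 0.995 on thinned cells. In fibroblasts Psmb8 stood at 27.8, 112 and 363 CPM. The steps were 4.05-fold (3.45 to 4.75) and 3.23-fold (2.83 to 3.69), which gave 13.1-fold between WT and aGVHD (11.4 to 15.05).

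The share of cells with a Psmb8 UMI was read after each cell was thinned to 2000 UMIs. In endothelial cells the WT share was 23.98% (exact 95% interval 19.96 to 28.4), the BMT share 59.7% (55.9 to 63.3) and the aGVHD share 87.1% (84.8 to 89.2), against 43.9%, 80.9% and 88.9% unthinned. In fibroblasts it was 4.39%, 16.4% and 40.6% thinned and 18.2%, 55.4% and 67.2% unthinned. In LepR stromal cells it was 41.4%, 71.4% and 66.1% thinned. For comparison, a class picked for its low level in each library had a thinned share of 0.508% in WT chondrocytes, 1.19% in BMT tendon cells and 2.79% in aGVHD erythroid cells. The median depth of these comparison classes was 17150, 9575 and 9312 UMIs, against 3726, 4508 and 2737 in endothelial cells and 8812, 12150 and 5212 in fibroblasts. Thinning left out 111, 74 and 315 endothelial cells and 26, 3 and 11 fibroblasts, and 41, 11 and 11 LepR stromal cells, that were too shallow.

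Psmb9 (ENSMUSG00000096727), the immunoproteasome subunit in the place of Psmb6, stood at 132, 405 and 419 CPM in LepR stromal cells of WT, BMT and aGVHD. The BMT level was 3.06 times that of WT (2.81 to 3.33), and the interval of aGVHD over BMT held 1 (1.04-fold, 0.972 to 1.10; 0.809 on thinned cells). In endothelial cells it stood at 88.2, 289 and 519.9 CPM, and in fibroblasts at 11.7, 48.6 and 189 CPM. Fibroblasts therefore held the widest range, with 16.2-fold between WT and aGVHD (13.2 to 20.1). Psmb10 (ENSMUSG00000031897), in the place of Psmb7, had smaller differences: 118, 263 and 336 CPM in LepR stromal cells. Endothelial cells held it at 81.5, 173 and 338 CPM, and in fibroblasts at 25.7, 61.7 and 147 CPM. Its BMT over WT ratio was much alike in the 3 classes, at 2.23, 2.13 and 2.40.

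The standard subunits that these genes replace, Psmb5, Psmb6 and Psmb7, were called in none of the 3 classes and none of the 3 comparisons. Of all genes, 2.22% to 7.55% were called in a given direction there. Their BMT over WT ratios ran from 0.772 (Psmb6 in LepR stromal cells) to 1.25 (Psmb7 in LepR stromal cells). For aGVHD over BMT in endothelial cells, Psmb6 was at 1.35 (1.22 to 1.49), Psmb5 at 1.13 (1.01 to 1.26) and Psmb7 at 1.03 (0.906 to 1.18). In fibroblasts Psmb5 stood at 124.6, 124.8 and 119 CPM in WT, BMT and aGVHD. The UMIs of a pair therefore shifted toward the inducible gene. A UMI counts a captured molecule, and capture may differ between the transcripts of a pair, so shares are compared between libraries rather than read as protein ratios.

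Of the Psmb8 and Psmb5 UMIs in fibroblasts, Psmb8 made up 18.2% in WT (exact 95% interval 16.4 to 20.2), 47.4% in BMT (43.6 to 51.1) and 75.3% in aGVHD (72.4 to 78.0). In endothelial cells the share was 50.9% (47.2 to 54.6), 79.1% (77.6 to 80.6) and 88.0% (87.1 to 88.8). The LepR stromal share was 60.8% (58.8 to 62.7), 79.1% (77.9 to 80.3) and 81.3% (79.96 to 82.5). The intervals of endothelial and LepR stromal cells overlapped in BMT, and those of the 3 classes did not overlap in WT. The Psmb9 share of its pair in LepR stromal cells was 38.2%, 71.1% and 70.6%, with overlapping intervals in BMT and aGVHD. In fibroblasts it was 7.32%, 26.7% and 57.2%. The Psmb10 share differed between BMT and aGVHD also in LepR stromal cells, at 71.9% (69.9 to 73.9) and 79.1% (77.1 to 80.98).

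**Figure D3:**
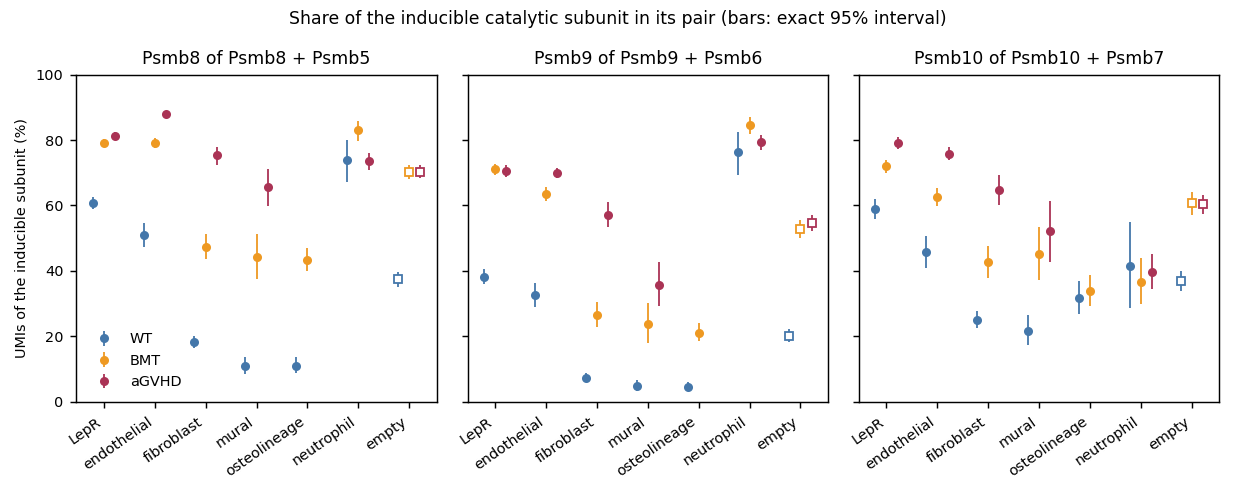
Share of the inducible gene among the UMIs of each catalytic pair (y axis, percent, exact 95% intervals) by class and library; open squares are empty droplets and aGVHD osteolineage cells are too few to show. Psmb8 shares of fibroblasts go from 18.2% to 47.4% to 75.3%, whereas BMT and aGVHD points of LepR stromal cells lie close together for Psmb8 and Psmb9.

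Other classes held their own balance. In neutrophils, which belong to the blood lineage, Psmb8 was 73.9% of its pair in WT, 82.99% in BMT and 73.6% in aGVHD, while Psmb10 was 41.4%, 36.7% and 39.8% of its pair with overlapping intervals. In osteolineage cells Psmb8 went from 11.1% (8.86 to 13.7) in WT to 43.5% (40.1 to 46.9) in BMT, and Psmb9 from 4.47% to 21.2%. The Psmb10 share there was 31.7% and 33.8%, with overlapping intervals (26.8 to 36.9 and 29.2 to 38.8). Osteolineage cells of BMT thus differed from those of WT in the share of Psmb8 and Psmb9, with no such difference detectable for Psmb10.

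The PA28 genes differed less. Psme1 (ENSMUSG00000022216) stood at 174, 297 and 396 CPM in LepR stromal cells, 198, 367 and 523 CPM in endothelial cells and 74.9, 119 and 246 CPM in fibroblasts. Psme2 (ENSMUSG00000079197), its partner in the ring, stood at 129.6, 231 and 269 CPM, at 112, 182 and 330.4 CPM and at 66.1, 92.6 and 167 CPM in the same classes. Every BMT over WT ratio of the pair lay between 1.40 and 1.86, under the 2-fold limit. Between WT and aGVHD both were called higher in each class, from 2.08-fold (Psme2 in LepR stromal cells, 1.89 to 2.29) to 3.28-fold (Psme1 in fibroblasts, 2.93 to 3.68).

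Of the peptide pump, Tap1 (ENSMUSG00000037321) had the largest BMT over WT ratio among the genes with at least 50 UMIs in both libraries of each class. In LepR stromal cells it stood at 36.8 CPM in WT, 259 CPM in BMT and 349 CPM in aGVHD, with BMT at 7.03 times WT (6.05 to 8.20). In endothelial cells it stood at 27.02, 176 and 402 CPM. There BMT was at 6.52 times WT (5.05 to 8.56) and aGVHD at 2.28 times BMT (2.09 to 2.49). In fibroblasts it stood at 9.16, 38.9 and 162 CPM, with steps of 4.25-fold (3.21 to 5.63) and 4.16-fold (3.36 to 5.19). WT Tap1 was thus low in all 3 classes and the libraries did not overlap in their intervals. On thinned cells the fibroblast ratio of BMT to WT was 8.56.

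The share of cells with a Tap1 UMI, thinned to 2000 UMIs, was 5.76%, 31.2% and 53.4% in endothelial cells of WT, BMT and aGVHD, and 10.6%, 52.6% and 66.1% unthinned. In LepR stromal cells it was 6.80%, 35.99% and 46.2% thinned and 17.2%, 80.3% and 85.5% unthinned. In the low comparison classes the thinned share was 0.761% of WT chondrocytes, 1.19% of BMT tendon cells and 8.05% of aGVHD erythroid cells.

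Tap2 (ENSMUSG00000024339), the other part of the pump, had smaller ratios than Tap1. It stood at 78.3, 165 and 196 CPM in LepR stromal cells, 74.3, 177 and 396 CPM in endothelial cells and 27.5, 44.95 and 153 CPM in fibroblasts. Its BMT over WT ratio was 2.11 (1.88 to 2.38) in LepR stromal cells and 2.38 (2.02 to 2.83) in endothelial cells. The fibroblast difference lay mostly between BMT and aGVHD, at 3.41-fold (2.77 to 4.21) against 1.64-fold (1.32 to 2.02) between WT and BMT.

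Tapbp (ENSMUSG00000024308) had the smallest BMT over WT ratio of the 9 genes in each of the 3 classes. It stood at 235, 316 and 482 CPM in LepR stromal cells, with a BMT over WT ratio of 1.34 (1.25 to 1.45). Endothelial cells held it at 173, 230.4 and 528 CPM, and in fibroblasts at 144, 189 and 521 CPM. Both classes held their larger difference between BMT and aGVHD, at 2.29-fold (2.13 to 2.47) and 2.75-fold (2.48 to 3.05). Fibroblast Tapbp in aGVHD was 3.44 times the empty-droplet level of that library, the highest such ratio of the 9 genes in fibroblasts.

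Nlrc5 (ENSMUSG00000074151), the class I activator, had few UMIs. LepR stromal cells had 77, 226 and 260 UMIs, or 14.3, 42.1 and 62.7 CPM, with BMT at 2.94 times WT (2.26 to 3.86). In endothelial cells it had 13, 112 and 313 UMIs, or 5.49, 26.01 and 73.7 CPM, with steps of 4.74-fold (2.66 to 9.18) and 2.83-fold (2.28 to 3.55). In fibroblasts it had 3 UMIs in WT, 20 in BMT and 52 in aGVHD, over 1097, 222 and 314 cells. The ratio of aGVHD to WT in fibroblasts was 91.6 with an interval from 29.6 to 458, and on thinned cells 42.4. Free RNA is a further limit, since empty droplets held Nlrc5 at 3.68, 54.4 and 40.8 CPM, above fibroblasts in every library and above endothelial and LepR stromal cells in BMT.

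The ratio of aGVHD to BMT was compared between classes gene by gene, as a ratio of ratios with an approximate 95% interval on the log scale. For 8 of 9 genes it was larger in endothelial cells than in LepR stromal cells with an interval without 1, by up to 1.90 times (Nlrc5, 1.44 to 2.52). The exception was Psme1, at 1.07 times (0.971 to 1.17). For 9 of 9 genes it was larger in fibroblasts than in LepR stromal cells, from 1.55 times (Psme2, 1.30 to 1.86) to 3.76 times (Psmb9, 3.07 to 4.60). The count for fibroblasts includes Nlrc5, whose aGVHD over BMT ratio in fibroblasts fell from 3.95 to 1.45 on thinned cells. For BMT over WT, the interval held 1 for 8 of 9 genes between endothelial and LepR stromal cells, with Psmb8 as the exception at 1.54 times (1.36 to 1.75). Between fibroblasts and LepR stromal cells it held 1 for 3 of 9 genes. The ratio was larger in fibroblasts for 3 (Psmb8, Psmb9 and Nlrc5) and smaller for 3 (Psme2, Tap1 and Tap2). The Nlrc5 ratio in fibroblasts rested on 3 UMIs in WT and 20 in BMT, under the minimum for a call. For Tap1 the direction did not hold on thinned cells. The fibroblast Tap1 ratio was 8.56 there, while the LepR stromal Tap1 ratio was at most 7.395 under any alternative. Ratios of ratios were worked out for the 9 genes only, so no share of all genes stands beside these counts. Whether other genes differ between classes in the same way was not tested.

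Endothelial cells were split by vessel markers, because their make-up differed between libraries. Capillary cells numbered 191 in WT, 545 in BMT and 986 in aGVHD, and venous or sinusoidal cells 190, 89 and 58. The remaining endothelial cells fell in neither part. Free RNA was estimated at 18.6%, 0.656% and 3.82% of capillary UMIs in WT, BMT and aGVHD. It would carry 92.7, 9.57 and 63.8 CPM of the summed level there, and its part in the ratios below was not tested. The summed level of the 9 genes was 1075 CPM (997 to 1157), 2205 CPM (2150 to 2262) and 4426 CPM (4352 to 4500) in capillary cells. It was 856 CPM (802 to 914), 1955 CPM (1852 to 2062) and 3146 CPM (2988 to 3311) in venous or sinusoidal cells. Intervals did not overlap between libraries in either part, and in each library the level was higher in capillary cells. Tap1 in BMT was at 11.1 times WT in capillary cells (6.00 to 23.4) and at 7.38 times WT in venous or sinusoidal cells (5.13 to 10.9). Psmb8 in aGVHD was at 2.19 times BMT in capillary cells (2.06 to 2.32), against 1.77 times (1.503 to 2.08) in the other part. In venous or sinusoidal cells the ratio of aGVHD to BMT was 1.61 for Tap1 (1.30 to 1.99) and 2.10 for Tapbp (1.71 to 2.59), against 2.37 (2.13 to 2.65) and 2.31 (2.099 to 2.54) in capillary cells.

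Per cell, the 9 genes together gave a median of 2 UMIs in WT, 5 in BMT and 6 in aGVHD LepR stromal cells thinned to 2000 UMIs. In endothelial cells the median was 1, 4 and 8 UMIs, and the 10th percentile in aGVHD was 4 UMIs, the WT 90th percentile. Of thinned aGVHD endothelial cells 99.2% (98.4 to 99.7) held at least 1 of the UMIs, against 78.4% (74.2 to 82.3) in WT. Holding 1 UMI does not by itself show a raised level in a cell, given the empty-droplet values below. Thinning left out 315 of 1231 aGVHD and 111 of 528 WT endothelial cells, so these shares cover the deeper cells only. In fibroblasts the median was 1, 1 and 3 UMIs, and 51.9%, 65.3% and 90.4% of cells held at least 1. A droplet of pure empty-droplet RNA of that size would hold 0.998, 2.92 and 3.35 UMIs in the 3 libraries.

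**Figure D4:**
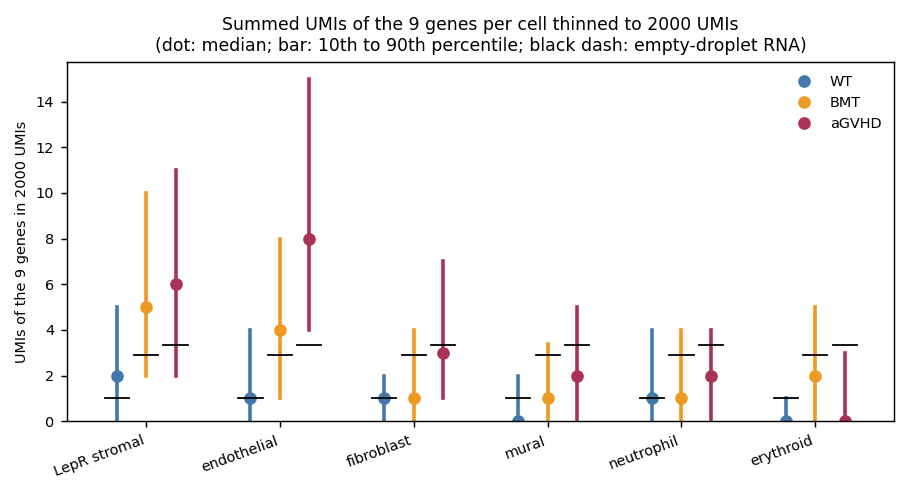
Summed UMIs of the 9 genes per cell after thinning to 2000 UMIs (y axis), by class and library: dots are medians, bars run from the 10th to the 90th percentile, and black dashes are the number that 2000 UMIs of empty-droplet RNA would hold. Endothelial medians are 1, 4 and 8 in WT, BMT and aGVHD, while neutrophil medians are 1, 1 and 2.

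Mural cells followed fibroblasts on fewer cells (478, 97 and 84). Psmb8 stood at 25.2, 115 and 336 CPM, 4.57-fold (3.31 to 6.33) and 2.92-fold (2.27 to 3.78) higher at each step. For BMT over WT 3 of 7 genes were called higher (3.61% of all genes), for aGVHD over BMT 5 of 8 (2.5%), and for aGVHD over WT 8 of 8 (3.11%). Nlrc5 had 0, 4 and 10 UMIs there. Free RNA was estimated at 12.2%, 1.30% and 16.9% of mural UMIs, which would carry 60.97, 18.97 and 282.7 CPM of the summed level, and its part in these ratios was not tested.

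Blood cells left after the sort, which can be donor cells in the treated libraries, differed in another way. In neutrophils 0 genes were called higher in BMT over WT, where 15.1% of all genes were, and 0 of 9 in aGVHD over BMT, where 3.64% were. In erythroid cells 7 of 8 genes were called higher in BMT over WT, on a background of 27.2%, and 6 of 9 lower in aGVHD over BMT, on a background of 57.4%. The median log2 fold of all genes in that class was 0.56 and -1.22 in these comparisons, 30.9% of the 97 BMT erythroid cells lay near the limits of the gate, and Ptprc had 48 UMIs in them. Megakaryocytes had 2 of 8 genes lower in aGVHD over BMT, on a background of 17%. In T and NK cells the intervals of the summed level overlapped between WT (2091 CPM) and aGVHD (2148 CPM), with Tap1 at a ratio of 2.06 (1.37 to 3.17).

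Called genes were few in the rest of the proteasome, as they were among all genes. Of 11 other core subunits, 18 subunits of the 19S regulator, which unfolds tagged proteins, and 8 assembly factors and other activators, 0 were called in LepR stromal or endothelial cells in any comparison. In those classes 2.22% to 7.55% of all genes were called in a given direction, so the count is not read as a trait of these lists. In fibroblasts 1 was called, the assembly factor Psmg3, at 2.65 times BMT in aGVHD (1.67 to 4.26) on 54 and 31 UMIs. Of all genes measured in that comparison, 3.12% were called higher. The median log2 fold of BMT over WT was 1.16 for the 9 genes in LepR stromal cells, against 0.13 for the other core subunits, 0.31 for the 19S subunits and 0.11 for all genes measured. In endothelial cells it was 1.25 for the 9 genes and -0.11 for the other core subunits. For aGVHD over BMT in endothelial cells the median was 1.12 for the 9 genes and 0.25 for the other core subunits, against -0.04 for all genes. Every other core subunit lay above 0 there, the lowest at 0.026. As examples, the core subunit Psma3 was at 300.4, 315 and 328 CPM in LepR stromal cells and the proteasome maturation factor Pomp at 202, 227 and 267 CPM.

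Class I molecules themselves moved further in fibroblasts and endothelial cells than in LepR stromal cells. For BMT over WT, H2-K1, a class I heavy chain, was 5.54-fold higher in fibroblasts (5.24 to 5.86), 3.32-fold in endothelial cells (3.17 to 3.47) and 1.89-fold in LepR stromal cells (1.86 to 1.92). H2-D1, the other heavy chain listed, was 4.35-fold, 2.89-fold and 1.61-fold higher, and B2m, the light chain, 4.21-fold, 3.07-fold and 1.99-fold. All 3 were thus called in fibroblasts and endothelial cells and 0 of 3 in LepR stromal cells, where WT held H2-K1 at 3619 CPM, H2-D1 at 7520.3 CPM and B2m at 3344 CPM. Of all genes, 3.13% were called higher in fibroblasts, 4.72% in endothelial cells and 5.01% in LepR stromal cells. For aGVHD over BMT in LepR stromal cells, H2-K1 and H2-D1 stood at 0.814 and 0.872, but B2m at 1.13 (1.11 to 1.15). The 9 genes stood at 1.04 to 1.52, and the median log2 fold of all genes was -0.12. Class I heavy chain genes are close relatives, and how reads were divided among them is uncertain.

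Peptide trimming and folding genes gave a mixed picture. Of 9 listed, 0 were called for BMT over WT in LepR stromal cells, where 5.01% of all genes were called higher. In endothelial cells (4.72% of all genes) and fibroblasts (3.13%) 1 each was called. These were Tapbpl, a tapasin relative that edits peptides, in endothelial cells (2.60-fold, 1.78 to 3.91) and Erap1, which trims peptides, in fibroblasts (2.31-fold, 1.63 to 3.24). The folding chaperone Hspa5 was 2.06-fold lower in LepR stromal cells of aGVHD (1131 CPM) than of BMT (2328 CPM), and the class I folding enzyme Pdia3 was 2.25-fold lower in endothelial cells. In the same comparison Tapbpl was 2.0996-fold higher in endothelial cells (1.73 to 2.56) and 2.84-fold higher in fibroblasts (1.81 to 4.55). Of 16 regulators of class I and interferon gamma signalling, 3 were called higher in BMT over WT in LepR stromal cells, 5 of 15 in endothelial cells and 4 of 16 in fibroblasts. The shares of all genes beside these counts were again 5.01%, 4.72% and 3.13%. Irf1, a factor that acts on Tap1 and Psmb9, was 2.31-fold higher in endothelial cells (2.09 to 2.55) and stood at 1.08 in LepR stromal cells (1.01 to 1.15), where WT held 357 CPM.

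**Figure D5:**
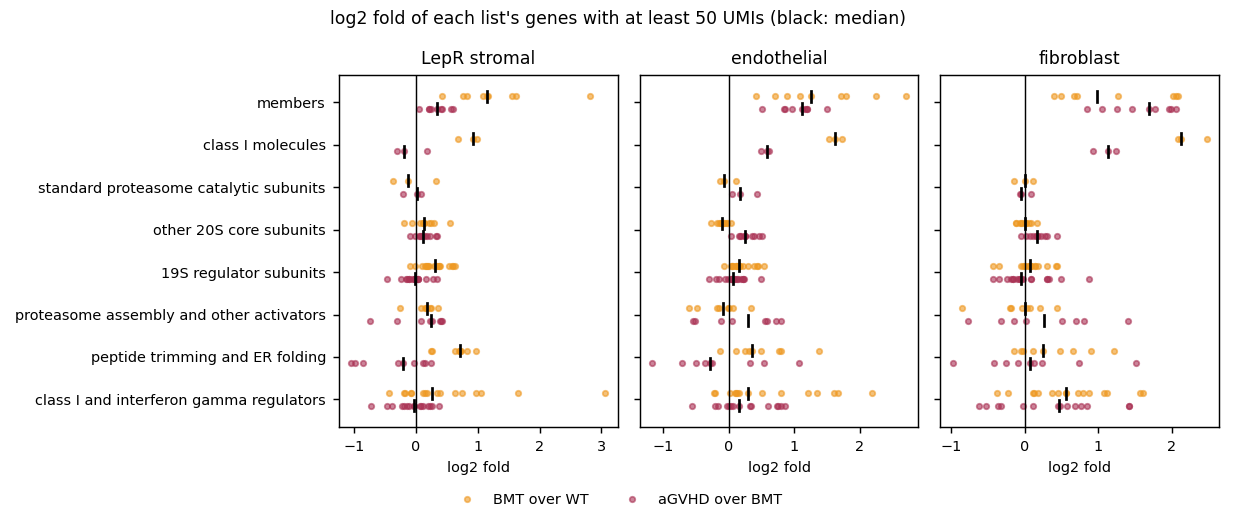
log2 fold of each gene with at least 50 UMIs (x axis) in 8 gene lists, for BMT over WT and aGVHD over BMT in 3 classes; black bars are list medians. For BMT over WT the medians of the 9 genes and of the class I molecules lie to the right of those of the other proteasome lists in each class; for aGVHD over BMT the class I median in LepR stromal cells is -0.20.

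Across 30 class and library points with at least 50 cells, the genes most like the mean of the 9 were ranked by Pearson correlation of log2(CPM + 10) among 12296 genes. The first was H2-K1 (r = 0.931), and the next included H2-T23, H2-T22, Dtx3l, Nmi, Ifi47, H2-Q4, Ogfr and B2m (r = 0.862). Points of 1 library share its depth and free RNA, so this is a description. Among the 9, each gene's correlation with the mean of the others ran from 0.719 for Tapbp to 0.954 for Psme2, with Tapbp as the gene least like the rest.

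Markers of blood cells moved with some of these comparisons. All 10 listed markers had a UMI in 4 of the 9 class and library combinations of the main classes, and 9 of 10 in the other 5. Their summed level was 467 to 2050 CPM in LepR stromal cells, 1026 to 2561 CPM in endothelial cells and 414 to 3798 CPM in fibroblasts, against 15160 to 32050 CPM in empty droplets. Hba-a1, a haemoglobin gene, stood at 1062, 24.8 and 3176 CPM in fibroblasts of WT, BMT and aGVHD. Cd74, the invariant chain of MHC class II, stood at 6.51, 328.6 and 940.5 CPM in LepR stromal cells and at 31.2, 726 and 1172 CPM in endothelial cells. The part of these markers in the results was not tested. Without Hba-a1, S100a8, Cd74 and Lyz2 the sum was at most 42.9 CPM in any of the 3 classes. With free RNA subtracted, the ratio of aGVHD to BMT in fibroblasts was 3.29 for Psmb8 and 4.40 for Tap1.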

How the data were processed

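Droplet single-cell RNA counts of 3 libraries (WT, BMT and aGVHD, 1 each) were used. The authors deposited raw UMI counts per gene and barcode, unfiltered, made with Cell Ranger 3.1.0 per the file headers; the mm10 build and Seurat are named in the submitters' processing notes. Barcodes with at least 1000 UMIs, 500 genes and under 10% mitochondrial UMIs were kept, and likely doublets (the highest Scrublet scores, 0.8% per 1000 cells) were removed. A marker counted in a cell at 1 or more UMIs and 5 times its empty-droplet level. UMIs were summed per class and library and given per 1000000 UMIs (CPM). Intervals are exact Poisson, exact conditional (ratios) or exact Clopper-Pearson (shares) at 95%, and cover counting error only; the interval of a ratio of ratios is a normal approximation on the log scale, chosen after the data were seen. The ratio, its interval and the call were tested on simulated data. All 9 genes are named in every main class; from the other lists, the counts are given, with the standard subunits, the class I molecules and genes that were called or serve as examples. Members and lists were chosen with earlier results of these data known. Tools were scanpy 1.11.5, numpy 2.4.6, pandas 2.3.3, scipy 1.17.1 and matplotlib 3.10.9. Alternatives changed the gate, scaling, doublets, depth, mitochondrial limit, free RNA and call limits. The values of 1 listed gene are not reported here.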

Additional observations from a re-analysis of the deposited data

Results flagged for a closer look

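For aGVHD over BMT, 5 genes were called lower in erythroid cells and higher in at least 1 niche class; the difference between classes was not tested. The ratio in erythroid cells was 0.0829 for Psmb8, against higher calls in endothelial cells, fibroblasts and mural cells. It was 0.365 for Psmb9 (higher in fibroblasts and mural cells), 0.2996 for Psmb10 and 0.319 for Psme1 (both higher in fibroblasts), and 0.482 for Tap2 (higher in endothelial cells, fibroblasts and mural cells). In megakaryocytes the ratio was 0.418 for Tap1 and 0.455 for Tap2, both called higher in endothelial cells, fibroblasts and mural cells; this difference was not tested either. Of all 6501 genes measured in erythroid cells 57.4% were called lower in this comparison, and the median log2 fold of all genes was -1.22. In megakaryocytes 17% of 3702 genes were called lower. The BMT erythroid class held 97 cells.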

How the results depend on the processing

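Over 18 counts of called genes, 226 of 234 values under the alternatives stayed within 1.5 times the main count and 8 moved. Of 810 values of single ratios 39 moved, of 108 values of pair shares 3 moved, and no called value changed direction. Uncalled ratios of aGVHD to BMT in LepR stromal cells did turn: Psmb8 to 0.995 and Psmb9 to 0.809 on thinned cells, and Psmb9 to -0.03 on the log2 scale with clusters in place of gates. With a level of at least 2 times the empty droplets required, the count of genes called higher was 1 (BMT over WT) and 3 (aGVHD over WT) in LepR stromal cells, 0 (BMT over WT) in endothelial cells, and 0 (BMT over WT), 1 (aGVHD over BMT) and 1 (aGVHD over WT) in fibroblasts. With a 1.5-fold limit it was 1 in LepR stromal cells and 8 in endothelial cells for aGVHD over BMT. The share of all genes called under these changed limits is not given here. In fibroblasts the Nlrc5 ratio ranged from 20.4 to 57.6 for BMT over WT and from 42.4 to 241 for aGVHD over WT, and fell to 1.45 for aGVHD over BMT on thinned cells; the Tap1 ratio of BMT to WT was 8.56 on thinned cells. The cause was not tested. No paired analysis was possible because each group is 1 library, and no replicate could be left out.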
